A study of Mus musculus with 13 samples.

Results

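Solute carriers are membrane proteins that move amino acids, sugars, ions, metals, nucleosides and other small molecules across the cell surface and the membranes of organelles. The genes described here were taken by name from the authors' deposited table of mouse fetal liver mRNA: all symbols starting with Slc and a digit, except 8 that the choice set aside by name (Slc2a1, Slc2a4, Slc43a1, Slc22a4, Slc12a4, Slc25a37, Slc25a38 and Slc25a39). This left 38 of the 46 solute carrier genes in the table, out of 2036 genes in all. They fall into 8 substrate classes by gene family. The mRNA came from whole livers at 14.5 days post coitum of 3 Klf1 genotypes, with 3 replicates each, and every genotype carries at least 1 null (-) allele. The D45/- livers hold the MommeD45 allele over a null allele, the -/- livers have no intact allele, and the +/- livers have 1 intact allele and served as the reference. The MommeD45 mutation lies in a linker between zinc fingers of the protein, per the series title. ChIP-seq with a KLF1 antibody covered MommeD45 and wildtype livers of the same stage. Each genotype had 1 such library, made from 2 pooled replicates, and how many MommeD45 copies those livers carried is not stated.

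The transcription factor KLF1 binds DNA through its zinc fingers and drives the red cell program, and the fetal liver is mainly a red cell forming organ at this stage. A maturing red cell remodels its transporters: it takes up amino acids for globin and glycine for heme, exports lactate, exchanges chloride for bicarbonate through band 3 and loses many carriers of its progenitors. Other carriers mark platelets, hepatocytes or macrophages that share the organ.

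The authors' deposited table gives 1 abundance per genotype, taken to be FPKM from its cuffdiff layout, and lists a comparison only where the authors' q was below 0.05. Single replicates were not analysed here, so values carry no SD, and sequencing depth is unknown. A gene that is missing from a comparison either missed that threshold or was not tested, and its difference was not shown to be absent. The label of the mutated gene was checked first: Klf1 was at 398 FPKM in D45/-, 34.8 FPKM in -/- and 378 FPKM in +/- livers in the authors' deposited table. Only -/- was set apart by this, since no call was made between D45/- and +/- livers. A swap of the D45/- and +/- labels would not show. As the livers are bulk tissue, fewer cells of a type and less RNA per cell cannot be told apart. Of 12 erythroid markers, 10 were called lower in -/- than in +/- livers and 0 were called between D45/- and +/- livers in the authors' deposited table. Over all listed genes, 43.2% were called lower in -/- than in +/- livers. Only 11.2% were called in either direction between D45/- and +/- livers, so few of 12 markers would be called there at that share.

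Some solute carriers were called in each comparison, and between -/- and +/- livers their split by direction was close to that of all listed genes. Between -/- and +/- livers 32 of the 38 genes were called (84.2%), 16 lower and 16 higher, where 13.8% of the tests assumed for this comparison and 87.7% of all 2036 listed genes were called. The share lower was 42.1%, against 43.2% of all listed genes, and the share higher was also 42.1%, against 44.5%. Between D45/- and +/- livers 8 genes were called (21.1%), where 1.76% of the assumed tests and 11.2% of listed genes were called. Of these, 3 were lower (7.89%, against 6.97% of listed genes) and 5 were higher (13.2%, against 4.22%). Both at a q under 0.01 and with q recomputed within this comparison, 3 lower and 2 higher genes remained called, so the higher genes no longer outnumbered the lower ones. Between D45/- and -/- livers 19 of the 38 genes were called, where 8.37% of the assumed tests and 53.3% of listed genes were called. Of these, 8 were lower in D45/- (21.1%, against 31.1%) and 11 were higher (28.9%, against 22.2%), while at a q under 0.01 the called genes were 7 lower and 2 higher. Every gene described here was called at least once, because the table holds no others, so the listed genes are the closer background, and no test was made over the group. The median size of the log2 ratio among called solute carriers was 1.50 for D45/- over +/-, 1.28 for -/- over +/- and 1.08 for D45/- over -/- in the authors' deposited table. Over all called genes the same medians were 1.10, 1.14 and 1.14. The median of 1.50 includes genes of low FPKM. With a pseudocount of 1, the D45/- over +/- log2 ratios became -0.92 for Slc4a5, 0.71 for Slc10a1 and 0.80 for Slc44a5. That of Slc1a5 stayed at -2.41.

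**Figure D1:**
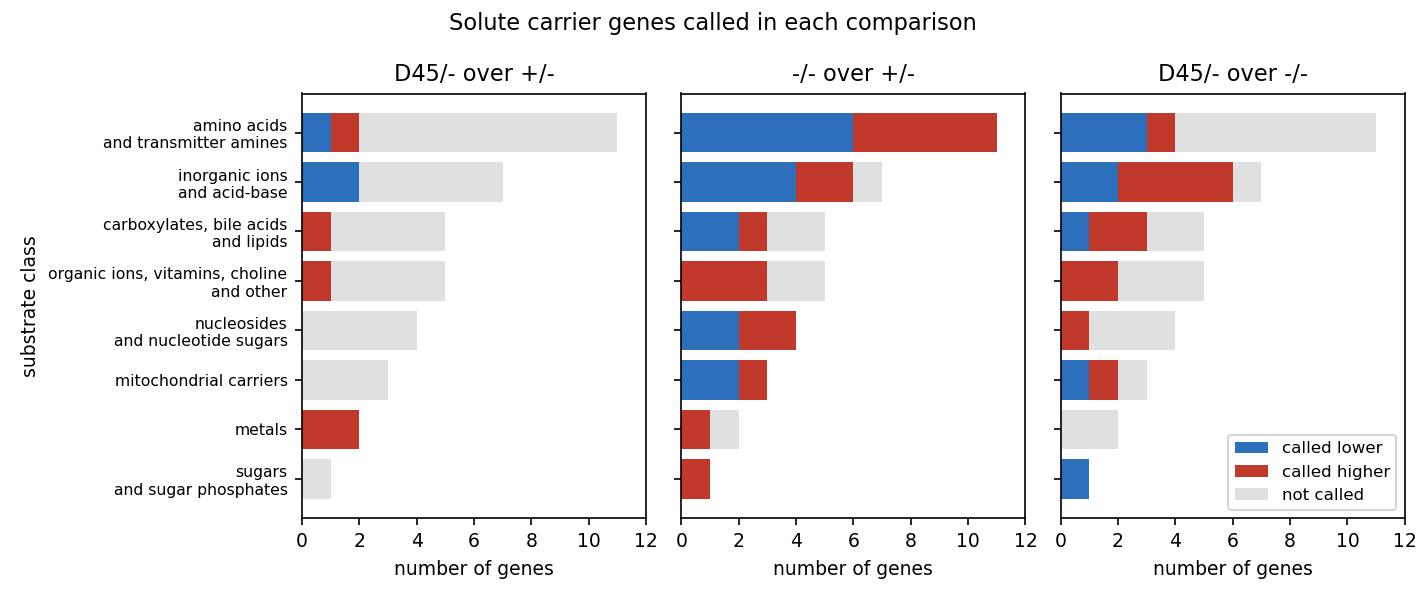
Number of solute carrier genes called lower, called higher or not called in each comparison, by substrate class (horizontal axis: genes; vertical axis: class). The 11 amino acid and amine carriers were all called between -/- and +/- livers, 6 lower and 5 higher. Both metal carriers were called higher in D45/- than in +/- livers at the deposited q. Neither was called with q recomputed within that comparison over an assumed number of tests.

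The comparison of D45/- with +/- livers sets the altered KLF1 against an intact one. Slc1a5, which encodes the glutamine and neutral amino acid transporter ASCT2, lost most of its mRNA with the MommeD45 allele. It was at 17.7 FPKM in D45/-, 17.6 FPKM in -/- and 98.5 FPKM in +/- livers in the authors' deposited table (log2 ratio of D45/- over +/- -2.47, authors' q 0.00159). Its level in D45/- livers thus lay beside that in -/- livers, and no call was made between them. The gene lies at chr7:17366694-17383623 (mm9) in the authors' deposited table.

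Slc4a5, a sodium bicarbonate cotransporter gene, showed the same order at a far lower level. It was at 0.0497 FPKM in D45/-, 0.0483 FPKM in -/- and 0.984 FPKM in +/- livers in the authors' deposited table, with log2 ratios of -4.31 and -4.35 over +/-. It was the only one of the 38 genes under 1 FPKM in every genotype listed, so its large ratio rests on a trace signal. Slc26a1, a sulfate and oxalate anion exchanger gene, was the only one called in all 3 comparisons. It was at 9.85 FPKM in D45/-, 3.64 FPKM in -/- and 23.3 FPKM in +/- livers in the authors' deposited table, so that D45/- lay between the other genotypes.

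The 5 genes higher in D45/- livers belong to several classes, and both metal carriers are among them. The zinc exporter gene Slc30a1 was at 15.8 FPKM in D45/-, 18.1 FPKM in -/- and 8.70 FPKM in +/- livers in the authors' deposited table. The other metal carrier, Slc39a8 (ZIP8, an importer of zinc, manganese and iron), was at 184 FPKM in D45/- and 110 FPKM in +/- livers in the authors' deposited table (log2 ratio 0.75), with no call that involves -/-. With q recomputed within this comparison alone neither metal carrier passed (q 0.177 for Slc39a8 and 0.0528 for Slc30a1), and neither passed at a q under 0.01. The recomputed q rests on the assumed 12965 tests, and Slc30a1 lies close enough to 0.05 to depend on that number.

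The dopamine transporter gene Slc6a3 was at 4.90 FPKM in D45/-, 4.68 FPKM in -/- and 1.95 FPKM in +/- livers in the authors' deposited table. The choline transporter-like gene Slc44a5 was at 1.63 FPKM in D45/-, 1.28 FPKM in -/- and 0.515 FPKM in +/- livers in the authors' deposited table. Both were called higher in each mutant than in +/- livers, and neither was called between the mutants. Those comparisons share the +/- libraries. The hepatocyte bile acid uptake gene Slc10a1 (NTCP) was at 1.06 FPKM in D45/- and 0.260 FPKM in +/- livers in the authors' deposited table (log2 ratio 2.03). Beside it, of 14 hepatocyte markers, Cps1 was higher (7.85 against 3.87 FPKM) and Serpina1b lower (109 against 210 FPKM) in D45/- than in +/- livers in the authors' deposited table, while the other 12 were not listed. Of 14 megakaryocyte markers, 3 (Itgb3, Plek and Ppbp) were called higher and 0 lower, with summed levels of 274 FPKM in D45/- and 158 FPKM in +/- livers in the authors' deposited table. Of 14 macrophage markers, Clec4f was higher (5.03 against 1.55 FPKM) and Marco lower (5.19 against 14.9 FPKM) in D45/- than in +/- livers in the authors' deposited table. No erythroid, granulocyte or endothelial and stromal marker was called in this comparison. Of all listed genes, 4.22% were called higher and 6.97% lower in D45/- than in +/- livers. The part of these cell type markers in the 5 higher genes was not tested. The summed megakaryocyte levels hold called markers only, so their direction follows from the calls. With q recomputed within this comparison alone, Slc10a1 (q 0.183) no longer passed, as was the case for the metal carriers.

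The comparison of -/- with +/- livers sets the absence of intact Klf1 against 1 intact allele. All 11 amino acid and amine carriers were called, 6 lower and 5 higher, where 87.7% of all listed genes were called, 43.2% lower and 44.5% higher. Besides Slc1a5, the 5 lower members were Slc6a9, Slc7a5, Slc7a1, Slc38a5 and Slc1a3. Slc6a9 (GlyT1), which supplies red cell precursors with glycine for heme, was at 47.5 FPKM in -/- and 110 FPKM in +/- livers in the authors' deposited table (log2 ratio -1.21). Slc7a5 (LAT1), which imports large neutral amino acids, was at 69.2 FPKM in -/- and 132 FPKM in +/- livers in the authors' deposited table.

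The arginine and lysine transporter gene Slc7a1 (CAT1) was at 14.3 FPKM in -/- and 25.5 FPKM in +/- livers in the authors' deposited table (log2 ratio -0.83). Slc38a5, a carrier of glutamine and other neutral amino acids, was at 97.4 FPKM in D45/-, 59.5 FPKM in -/- and 98.2 FPKM in +/- livers in the authors' deposited table. Its ratio of -0.72 was the smallest in size among the lower members, and D45/- lay beside +/-. The glutamate transporter gene Slc1a3 was at 1.38 FPKM in -/- and 3.62 FPKM in +/- livers in the authors' deposited table.

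The 5 higher members of the class were mostly carriers of low abundance. The cationic amino acid transporter gene Slc7a3 (CAT3) had the largest rise of all 38 genes, at 0.132 FPKM in D45/-, 2.72 FPKM in -/- and 0.354 FPKM in +/- livers in the authors' deposited table (log2 ratio of -/- over +/- 2.94). Its relative Slc7a2 (CAT2) was at 2.94 FPKM in D45/-, 6.23 FPKM in -/- and 2.18 FPKM in +/- livers in the authors' deposited table. The 3 cationic amino acid carriers therefore did not move alike: Slc7a1 was lower, and Slc7a2 and Slc7a3 were higher, in -/- than in +/- livers. The neutral amino acid carrier gene Slc1a4 (ASCT1), a relative of Slc1a5, was at 9.63 FPKM in D45/-, 19.3 FPKM in -/- and 8.82 FPKM in +/- livers in the authors' deposited table. Slc1a4 and Slc1a5 thus went in opposite directions without Klf1. The other 2 higher members carry amines: Slc6a3, described above, and Slc6a4.

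The serotonin transporter gene Slc6a4, known from platelets and nerve cells, was at 7.27 FPKM in -/- and 3.61 FPKM in +/- livers in the authors' deposited table. Slc18a2, which loads amines into vesicles and platelet granules, was at 1.42 FPKM in -/- and 0.553 FPKM in +/- livers in the authors' deposited table. Slc35d3, which is needed in mice for platelet dense granules, was at 6.70 FPKM in -/- and 2.37 FPKM in +/- livers in the authors' deposited table (log2 ratio 1.50). These 3 genes, tied by background knowledge to platelet serotonin and its granules, were each higher in -/- livers. Of 14 megakaryocyte markers, 12 were also called higher and 0 lower in -/- than in +/- livers in the authors' deposited table, with summed levels over those 12 of 1662 FPKM in -/- and 819 FPKM in +/-. Among them the integrin gene Itga2b was at 129 FPKM in -/- and 56.5 FPKM in +/- livers in the authors' deposited table. The summed levels hold called megakaryocyte markers only, so their direction follows from the calls. The part of these markers in the 3 genes was not tested. Of all listed genes, 44.5% were called higher in -/- than in +/- livers.

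Among carriers of inorganic ions, Slc4a1 was by far the most abundant of the 38 genes. It encodes band 3, the chloride and bicarbonate exchanger that anchors the red cell membrane skeleton, and it was at 1690 FPKM in D45/-, 568 FPKM in -/- and 2086 FPKM in +/- livers in the authors' deposited table (log2 ratio of -/- over +/- -1.88). The gene lies at chr11:102210133-102226595 (mm9) in the authors' deposited table. The loss without Klf1 was called and the lower value in D45/- than in +/- was not. Slc41a3, of a magnesium carrier family, was at 48.7 FPKM in D45/-, 29.7 FPKM in -/- and 64.3 FPKM in +/- livers in the authors' deposited table. With Slc26a1 and Slc4a5, this gave 4 lower members of 7. Higher in -/- was the sodium bicarbonate cotransporter gene Slc4a4, at 1.21 FPKM in D45/-, 2.84 FPKM in -/- and 1.14 FPKM in +/- livers in the authors' deposited table. Slc26a11, of the sulfate carrier family, was at 0.382 FPKM in D45/-, 1.62 FPKM in -/- and 0.361 FPKM in +/- livers in the authors' deposited table. The bicarbonate carriers were thus split, with Slc4a1 and Slc4a5 lower and Slc4a4 higher in -/- than in +/- livers.

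**Figure D2:**
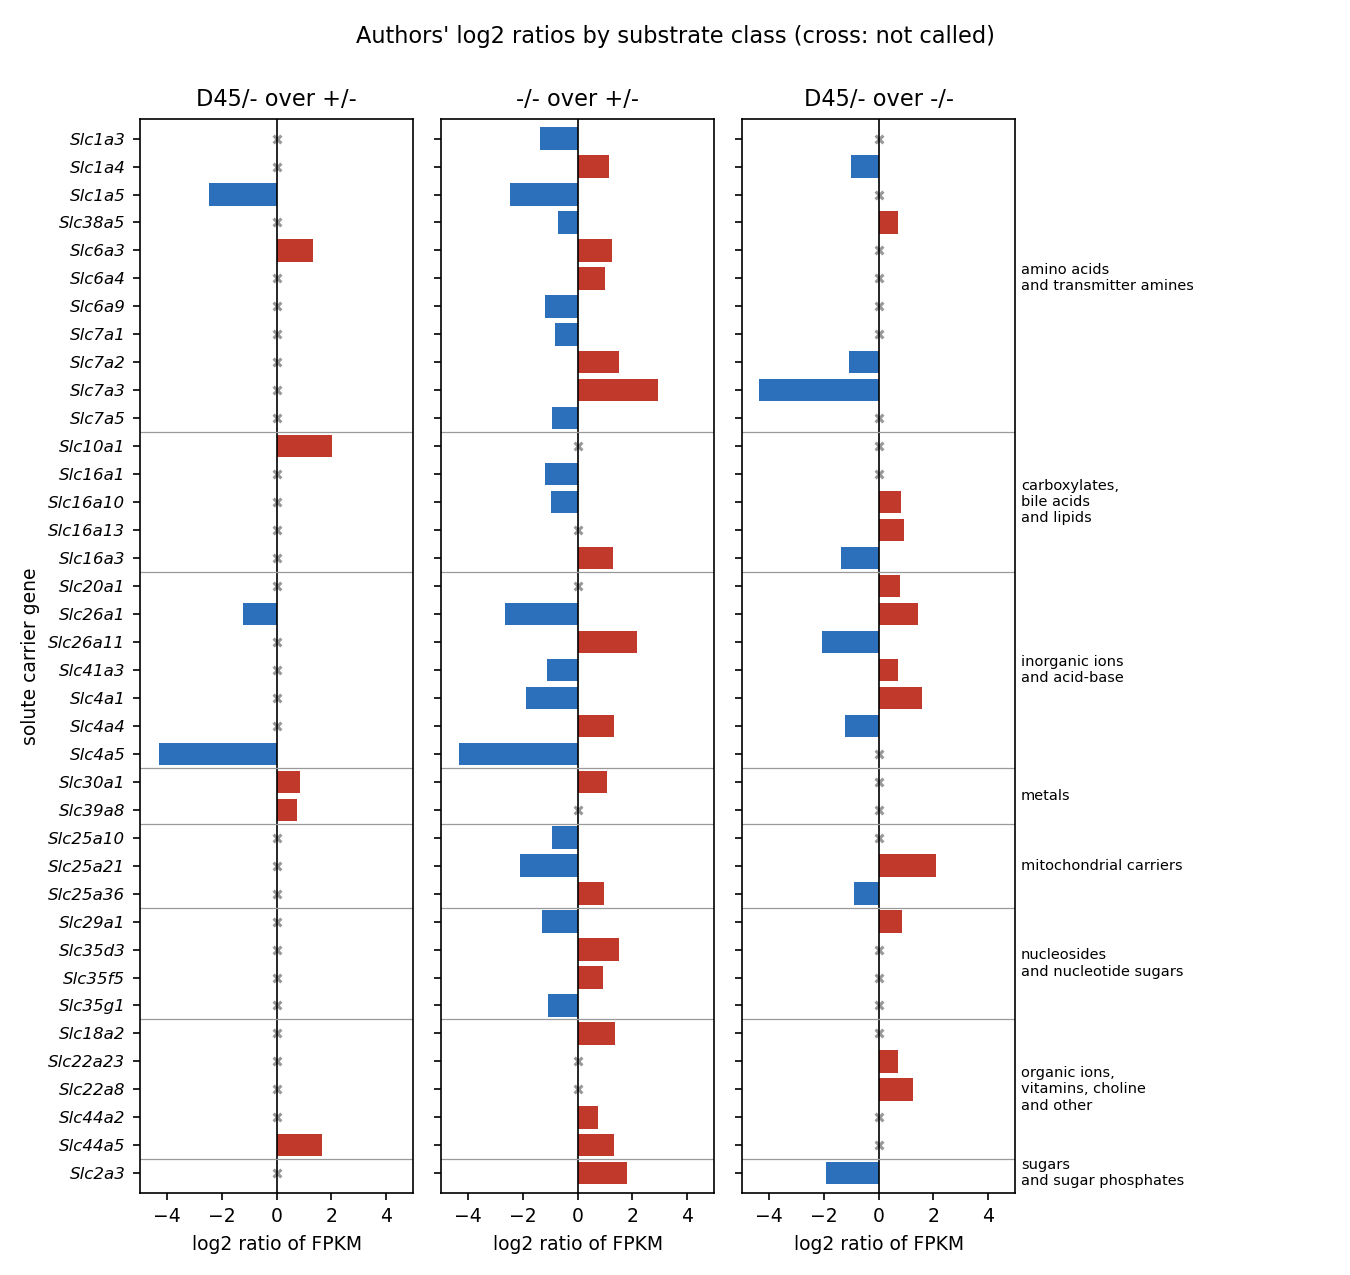
Log2 ratio of FPKM for each of the 38 solute carrier genes in the 3 comparisons, from the authors' deposited table, grouped by substrate class. Bars to the left are lower and bars to the right higher in the first-named genotype, and a cross marks a gene that was not called. Slc4a5 and Slc1a5 have bars of nearly equal length in the D45/- over +/- and -/- over +/- panels, whereas Slc7a3 and Slc2a3 have none in the first panel.

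Monocarboxylate carriers were split by family member. Slc16a1 (MCT1), the widely used lactate and pyruvate carrier, was at 58.3 FPKM in -/- and 132 FPKM in +/- livers in the authors' deposited table (log2 ratio -1.18). Slc16a3 (MCT4), the lactate exporter of glycolytic cells, was at 40.8 FPKM in D45/-, 106 FPKM in -/- and 43.2 FPKM in +/- livers in the authors' deposited table (log2 ratio of -/- over +/- 1.30). Slc16a1 was thus the more abundant of these lactate carriers in +/- livers and Slc16a3 in -/- livers. The facilitative glucose transporter gene Slc2a3 (GLUT3) was at 25.9 FPKM in D45/-, 98.6 FPKM in -/- and 27.9 FPKM in +/- livers in the authors' deposited table. Slc2a3 and Slc16a3 were each called higher in -/- than in either other genotype. The aromatic amino acid carrier gene of the monocarboxylate family, Slc16a10 (TAT1), was at 29.0 FPKM in D45/-, 16.4 FPKM in -/- and 32.5 FPKM in +/- livers in the authors' deposited table (log2 ratio of -/- over +/- -0.99).

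Mitochondrial carriers were also called in both directions. Slc25a21, which carries oxodicarboxylates of lysine breakdown, was at 15.1 FPKM in D45/-, 3.51 FPKM in -/- and 15.2 FPKM in +/- livers in the authors' deposited table (log2 ratio of -/- over +/- -2.12). The dicarboxylate carrier gene Slc25a10 was at 6.65 FPKM in -/- and 12.8 FPKM in +/- livers in the authors' deposited table. The pyrimidine nucleotide carrier gene Slc25a36 was at 4.69 FPKM in D45/-, 8.80 FPKM in -/- and 4.55 FPKM in +/- livers in the authors' deposited table. For both Slc25a21 and Slc25a36 the D45/- value lay beside the +/- value.

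Of the nucleoside and nucleotide sugar carriers, the nucleoside transporter gene Slc29a1 (ENT1), whose protein is abundant on human red cells, was at 93.0 FPKM in D45/-, 51.6 FPKM in -/- and 128 FPKM in +/- livers in the authors' deposited table. Slc35g1 was lower (1.40 against 2.94 FPKM) and Slc35f5 higher (9.11 against 4.83 FPKM) in -/- than in +/- livers in the authors' deposited table. The choline transporter-like gene Slc44a2 was at 24.2 FPKM in -/- and 14.5 FPKM in +/- livers in the authors' deposited table (log2 ratio 0.74).

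The lower and higher groups differed in abundance. In +/- livers the 16 genes lower in -/- ranged between 0.984 and 2086 FPKM with a median of 48.4 FPKM in the authors' deposited table, and the 16 higher genes between 0.354 and 43.2 FPKM with a median of 2.99 FPKM. Over all genes called in that comparison the medians were 44.98 FPKM for the 879 lower and 2.96 FPKM for the 907 higher genes, so the solute carriers resembled the rest of the table in this. The +/- level is itself one side of the ratio that sorted these genes. By the highest genotype listed, the medians were 48.4 FPKM for the 16 lower and 6.99 FPKM for the 16 higher solute carriers in the authors' deposited table.

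The comparison of D45/- with -/- livers asks what the MommeD45 allele still provides. Higher in D45/- than in -/- livers were 11 genes: Slc4a1, Slc16a10, Slc25a21, Slc26a1, Slc29a1, Slc38a5 and Slc41a3, described above, and 4 genes called in no other comparison. The phosphate importer gene Slc20a1 (PiT1) was at 156 FPKM in D45/- and 90.3 FPKM in -/- livers in the authors' deposited table (log2 ratio 0.78). Slc16a13, of the monocarboxylate family, was at 9.81 FPKM in D45/- and 5.17 FPKM in -/- livers in the authors' deposited table. The organic ion carrier family gave Slc22a23, at 34.3 FPKM in D45/- and 21.1 FPKM in -/-, and the organic anion transporter gene Slc22a8 (OAT3), at 2.22 FPKM in D45/- and 0.940 FPKM in -/-, in the authors' deposited table. Ratios in this direction were modest, with a median log2 ratio of 0.85 over the 11 genes.

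Lower in D45/- than in -/- livers were Slc7a3, Slc26a11, Slc2a3, Slc16a3, Slc4a4, Slc7a2, Slc1a4 and Slc25a36. The log2 ratios were -4.37 for Slc7a3, -2.09 for Slc26a11 and -1.93 for Slc2a3 in the authors' deposited table. All 8 were also called higher in -/- than in +/- livers and none was called between D45/- and +/-. The comparisons share the -/- libraries, so a high value in those raises the gene in one and lowers it in the other.

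Values in all 3 genotypes were listed for 20 of the 38 genes. For these, the D45/- level was placed on the log2 scale between -/- (0%) and +/- (100%). Among the 9 that were lower in -/-, Slc1a5 (0.289%) and Slc4a5 (0.998%) lay at the -/- level. Slc26a1 (53.6%), Slc41a3 (64.0%) and Slc29a1 (64.7%) lay between the genotypes, and Slc16a10 (83.4%), Slc4a1 (83.8%), Slc38a5 (98.2%) and Slc25a21 (99.5%) lay towards +/-. The median was 64.7%, beside 75.2% over all 452 listed genes of the same kind, of which 75 lay below 50%. Among the 11 that were higher in -/-, 8 lay at or above 71.4%, which is the value of Slc7a2, while Slc30a1 (18.6%) lay near the -/- level and Slc6a3 (-5.33%) and Slc44a5 (-26.6%) lay past it. Their median was 93.7%, beside 92.4% over 529 listed genes. Below 50% lay 3 of the 11 and 42 of the 529. These places come from 1 value per genotype, and only genes called in at least 2 comparisons have one.

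**Figure D3:**
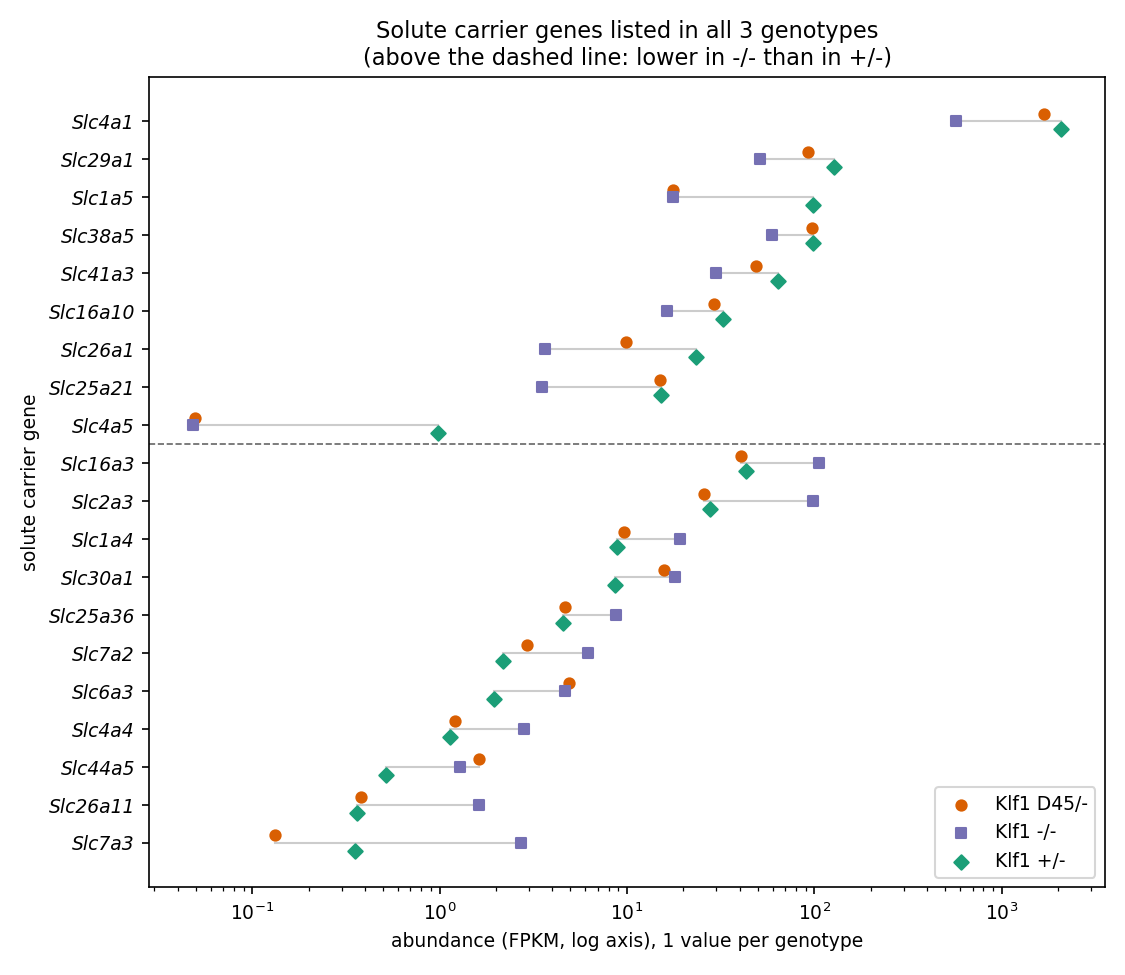
Abundance (FPKM, log axis) of the 20 solute carrier genes with values in all 3 genotypes, 1 point per genotype from the authors' deposited table; the points of a gene are shifted slightly in height so that none hides another. For Slc1a5 the D45/- point (17.7) sits over the -/- point (17.6), whereas for Slc25a21 it sits over the +/- point (15.1 and 15.2).

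Genes known to respond to amino acid shortage and the integrated stress response were read as a further list. Of 22 such genes, 7 were called higher and 0 lower in -/- than in +/- livers in the authors' deposited table, with a median log2 ratio of 3.03. Trib3, a pseudokinase gene of that response, was at 6.69 FPKM in D45/-, 33.4 FPKM in -/- and 3.13 FPKM in +/- livers in the authors' deposited table. Chac1, which degrades glutathione, was at 3.89 FPKM in -/- and 0.673 FPKM in +/- livers in the authors' deposited table. Between D45/- and -/- livers 9 of the 22 were lower in D45/- and 0 higher, and Trib3 alone was called higher in D45/- than in +/- livers. The relation of these response genes to the solute carrier values was not tested. Of all listed genes, 44.5% were called higher in -/- than in +/- livers and 31.1% lower in D45/- than in -/- livers. Of 7 chaperones and adaptors of solute carriers, Emb, which escorts monocarboxylate carriers to the membrane, was called higher in -/- (10.5 against 4.48 FPKM in +/-) in the authors' deposited table, and the other 6 were not listed.

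Other cell types were read beside the higher genes in the same way. Of 12 granulocyte markers 9 were called higher and 0 lower, of 14 macrophage markers 2 higher and 0 lower, and of 12 endothelial and stromal markers 4 higher and 0 lower, in -/- than in +/- livers in the authors' deposited table. Of all listed genes, 44.5% were called higher and 43.2% lower in this comparison. The sums that follow hold called markers only, so their direction follows from the calls. Summed over the called markers, granulocyte levels were 2721 FPKM in -/- and 1274 FPKM in +/-, macrophage levels 38.6 FPKM in -/- and 21.4 FPKM in +/-, and endothelial and stromal levels 66.5 FPKM in -/- and 32.5 FPKM in +/- in the authors' deposited table. The summed level of the 10 called erythroid markers was 1824 FPKM in -/- and 5416 FPKM in +/- livers in the authors' deposited table. In D45/- livers 11 of the 12 erythroid markers were above -/-, with summed levels of 4552 FPKM in D45/- and 1943 FPKM in -/-. In the same comparison, beside the 8 solute carriers lower in D45/-, 8 granulocyte markers were lower and 0 higher (summed 1186 FPKM in D45/- and 2375 FPKM in -/-), and 6 endothelial and stromal markers were lower and 0 higher (81.1 FPKM in D45/- and 157 FPKM in -/-), in the authors' deposited table. Of the macrophage markers 2 were lower and 1 higher in D45/- than in -/- livers (summed 15.5 FPKM in D45/- and 39.2 FPKM in -/-), and of the megakaryocyte markers 1 was lower and 0 higher (21.4 FPKM in D45/- and 36.9 FPKM in -/-), in the authors' deposited table. Of the hepatocyte markers 1 was lower and 1 higher in D45/- than in -/- livers. Of all listed genes, 31.1% were called lower and 22.2% higher in D45/- than in -/- livers. The part of the cell type markers in the solute carrier values was not tested.

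KLF1 peaks lay near few of the genes. Within 10 kb of the locus given in the authors' table, 4 of 38 genes had a peak in MommeD45 livers (10.5%, against 7.37% of the 2036 listed genes) and 7 of 38 had one in wildtype livers (18.4%, against 16.1%). The authors called 485 peaks in MommeD45 and 1203 in wildtype livers once peaks with several summits were counted once. Fold enrichments over local background are the authors' values, and ranks hold within 1 list only. As each genotype had 1 library, the peaks allow no test between them.

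Peaks at the start of the gene were found for Slc16a10 and Slc44a2, in both libraries. At Slc16a10 the MommeD45 peak (chr10:39862033-39862213, mm9) had a fold enrichment of 6.18 and the wildtype peak (chr10:39862018-39862232) one of 6.06, with summits 90 and 74 bases before the 5′ end of the locus. At Slc44a2 the MommeD45 peak (chr9:21125013-21125198) had a fold enrichment of 4.72 and the wildtype peak (chr9:21125030-21125228) one of 5.81, with summits 44 and 32 bases before the 5′ end. The strand was taken from RefSeq. These genes were called in opposite directions without Klf1, Slc16a10 lower and Slc44a2 higher in -/- than in +/- livers. At these loci a shared promoter peak thus went with no common direction. The Slc44a2 call (log2 ratio 0.74, authors' q 0.0418) did not pass a q under 0.01, and no D45/- value was listed for Slc44a2.

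The 250 bases before the start of these genes are shown because they are the stretch in which the summits fell, from RefSeq on GRCm38.p6, whose coordinates were not converted to the mm9 of the peaks. Slc16a10 is read from chr10:40142255-40142504 on the minus strand and Slc44a2 from chr9:21320469-21320718 on the plus strand. Capitals mark matches of either strand to CCNCNCCC, a spelling of the CACCC box that KLF1 is known to bind.
Slc16a10: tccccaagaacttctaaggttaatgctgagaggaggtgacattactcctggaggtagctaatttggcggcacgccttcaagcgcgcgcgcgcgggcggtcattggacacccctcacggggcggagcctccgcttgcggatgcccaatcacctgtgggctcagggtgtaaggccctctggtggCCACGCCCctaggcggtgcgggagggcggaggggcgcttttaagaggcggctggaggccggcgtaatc
Slc44a2: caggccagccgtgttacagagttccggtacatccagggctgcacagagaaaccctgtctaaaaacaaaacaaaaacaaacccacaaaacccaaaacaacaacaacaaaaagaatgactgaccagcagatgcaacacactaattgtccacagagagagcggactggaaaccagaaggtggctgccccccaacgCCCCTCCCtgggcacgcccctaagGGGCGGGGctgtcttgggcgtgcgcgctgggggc

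The single match before Slc16a10, CCACGCCC, began 68 bases before the RefSeq start on the strand of the gene. Slc44a2 had 1 match on each strand, beginning 58 and 34 bases before the start. The motif is common: 45.6% of 27025 RefSeq promoters held it in the same 250 bases, as did 66.9% of the 1537 listed genes with a promoter sequence and 25 of the 30 solute carriers with one (83.3%). The stricter spelling CCACACCC was found in 0 of those 30 and in 3.22% of all promoters. A match is a description of letters and not of a bound site.

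**Figure D4:**
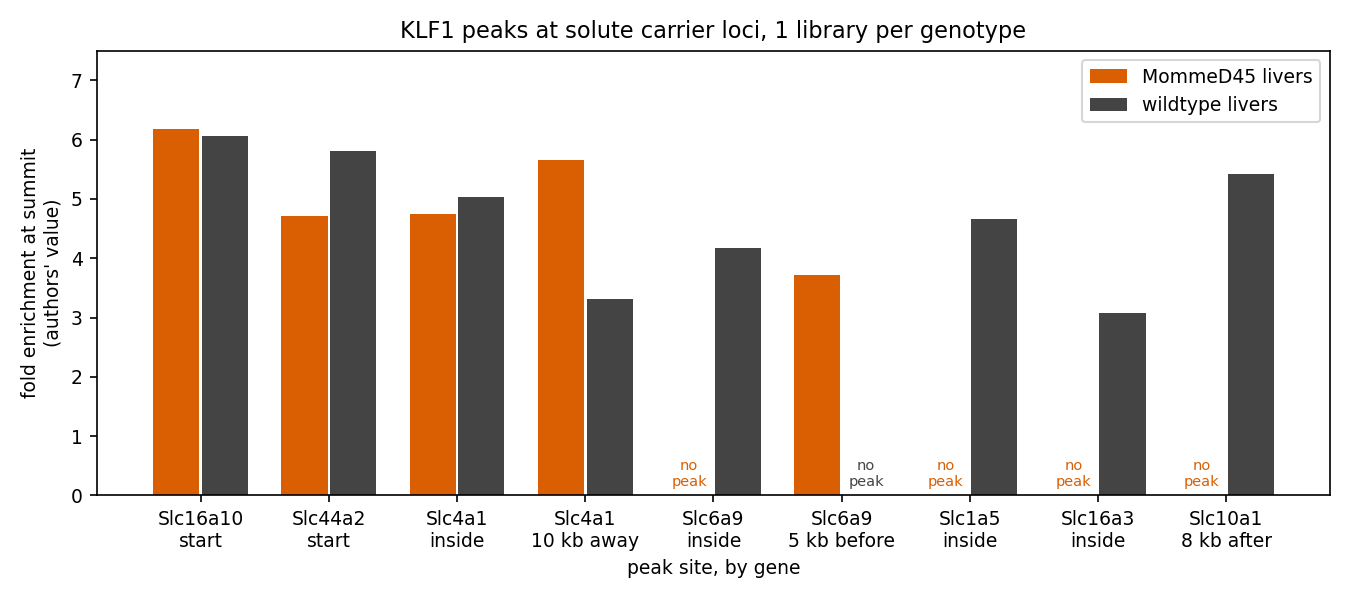
Fold enrichment (vertical axis, authors' value) of the KLF1 peaks at solute carrier loci in MommeD45 and wildtype livers, with 1 library each and so no error bars. Slc16a10, Slc44a2 and Slc4a1 have a bar from both libraries, whereas Slc1a5, Slc16a3 and Slc10a1 have one from wildtype livers alone; the distance labels are rounded.

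Slc4a1 had a peak inside its locus in both libraries, with fold enrichments of 4.74 in MommeD45 (chr11:102224971-102225214) and 5.04 in wildtype livers (chr11:102224984-102225177). A second site lay at the edge of the 10 kb window, 10.013 kb from the locus in MommeD45 livers (fold enrichment 5.65) and 9.962 kb in wildtype livers (3.31), and its peaks overlapped. Of the 8 wildtype peaks within 10 kb of a solute carrier gene, 4 overlapped a MommeD45 peak by at least 1 base, namely these and the pair at gene starts. The share of all wildtype peaks with such an overlap was not counted. The MommeD45 list was the shorter, with 485 peaks against 1203, so wildtype peaks without a counterpart also lay elsewhere. Whether 4 of 8 is a usual share cannot be told from the list lengths.

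The other 4 wildtype peaks had no MommeD45 counterpart. Slc1a5, whose mRNA in D45/- livers was at the -/- level, had a wildtype peak inside its locus (chr7:17368879-17369073, fold enrichment 4.66, rank 694 of 1203) and no MommeD45 peak within 50 kb. The fold enrichment of that peak was under the wildtype median of 4.93. A relation between the missing MommeD45 peak and the mRNA level was not tested. Slc16a3 had a weak wildtype peak inside its locus (fold enrichment 3.08, rank 1166), and Slc10a1 had one 7.678 kb beyond its 3′ end (5.41). At Slc6a9 the libraries differed in place: the MommeD45 peak (3.71) lay 4.833 kb before the locus, whereas the wildtype peak (4.18) had its summit 1337 bases inside it. Slc4a5, the other gene at the -/- level in D45/- livers, had no peak of either library within 50 kb. Some genes without a peak in the 10 kb window had one within 50 kb. Slc20a1 had a peak of both libraries there, 16.246 kb away in MommeD45 and 16.224 kb away in wildtype livers. So did Slc26a1, 39.212 kb away in MommeD45 and 39.238 kb away in wildtype livers. Slc29a1 (11.715 kb) and Slc26a11 (47.705 kb) had a wildtype peak alone.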

How the data were processed

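Globin transcripts were depleted before poly(A) selection and Ion Proton sequencing, per the labels' protocols. TopHat2 2.0.10 and the build mm9 are named in the submitters' processing notes; which cuffdiff version, annotation and strand setting were used is not stated. Per the file headers, the deposited gene table gives abundances (taken to be FPKM), a log2 ratio without pseudocount, a p-value and a q-value by the authors. The sign of each log2 ratio was turned so that the first-named genotype is on top. The authors called peaks with Bowtie2, Picard and MACS2, per the deposited description sheet; the deposited peak tables give a pileup signal, a fold enrichment over local background and −log10 of p and q.

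All 38894 tests implied by the deposited q-values, which were adjusted once over the 3 comparisons, were divided equally, giving 12965 per comparison as an assumption. Recovery of the total was tried on simulated data with equal numbers of tests per comparison, which cannot test the equal division. Genes were grouped by substrate class of their family. Every gene was named; full values were given for those called in D45/- against +/-, for the 10 highest and 10 lowest of each comparison at 1 FPKM or more, and for those with a peak within 10 kb, and most of the rest also received them. The members and lists were chosen with earlier results of these data known. The 3 replicates per genotype were summarised to 1 value in the deposited table, so no count model was fitted here, and no test was made over the members. Python 3.11.15, numpy 2.4.6, pandas 2.3.3 and matplotlib 3.10.9 were used.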

Additional observations from a re-analysis of the deposited data

How the results depend on the processing

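The number of solute carriers called in D45/- against +/- was 8, and it was 5 at a q under 0.01, 5 with q recomputed within the comparison, 4 with at least 5 FPKM in the higher genotype and 3 with a log2 ratio of at least 1 at a pseudocount of 1. Fewer of all genes were called under the same settings (130, 131, 176 and 87 of 228). The 32 calls in -/- against +/- became 14, and the 19 in D45/- against -/- became 6, under that last setting, where the calls over all genes became 743 of 1786 and 439 of 1085; at a q under 0.01 the 19 became 9, and the 1085 became 618. Solute carriers with a wildtype peak numbered 7 within 10 kb, 11 within 50 kb and 4 with peaks at or above the median fold enrichment. The same numbers over all 2036 listed genes were 327, 531 and 188. That last setting left 1 of 4 solute carriers for MommeD45, where it left 70 of 150 listed genes. Every other alternative kept these counts within 1.5 times. A pseudocount of 1 moved 29 of 59 log2 ratios by 0.1 or more and a pseudocount of 0.1 moved 10, with 0 changes of sign. No paired analysis was possible because the deposited table holds 1 value per genotype; for the same reason leaving out each replicate was not run. Low abundances limit Slc4a5, Slc10a1 and Slc7a3 most.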
